A study of Mus musculus with 4 samples.

Results

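A small set of hepatic macrophages with Cx3cr1 RNA and few or no transcripts of Kupffer cell markers was followed in 4 libraries of mouse liver CD45+ cells. The cells were selected on measured values. Each had at least 500 unique molecular identifiers (UMIs, the counted RNA molecules), 200 genes or more, and no more than 20% of UMIs from mitochondrial genes. Each also had at least 1 UMI of Cx3cr1, a summed count of at least 5 UMIs of C1qa, C1qb and C1qc, and 0 UMIs of Clec4f. Under 3 of Timd4, Vsig4, Cd5l, Marco and Folr2 were detected, and Chil3, Ace, Siglech, Cd79a and Cd3e were at 0. In all 104 of 15020 kept cells met the rule, 23 and 37 in exercise replicates 1 and 2 and 19 and 25 in sedentary replicates 1 and 2. They are called Cx3cr1 macrophages below.

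Cx3cr1 encodes the receptor of the chemokine fractalkine and marks patrolling monocytes, microglia and several tissue macrophages that sit at vessels, capsules and epithelia. The C1q genes encode the recognition unit of the classical complement pathway and are strongly expressed by mature tissue macrophages. Kupffer cells, the macrophages of the liver sinusoids, carry Clec4f and scavenger receptors such as Marco and Timd4 and lack Cx3cr1. Macrophages of the liver capsule and of large vessels, and macrophages recently derived from monocytes, are known for Cx3cr1, MHC class II and Ccr2.

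The samples came from adult wild-type C57BL/6 mice, and the series title names Kupffer cells and exercise before surgery as its subject. Mice of the exercise group (2 libraries) ran on a motorized treadmill at 12.5 m/min, and those of the sedentary group (2 libraries) were placed on a treadmill that stood still. Both did so for 60 min a day on 5 days a week for 4 weeks. The labels give serum alanine aminotransferase, an enzyme that damaged liver cells release, as 26 U/L for exercise replicate 1 and 59 U/L for exercise replicate 2. For sedentary replicate 1 it was 33 U/L, and for sedentary replicate 2 it was 56 U/L. Whether each library came from 1 animal is not stated in the labels, so p-values measure the spread between these libraries.

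The 4 libraries held 10050976 to 14849778 UMIs, with medians of 2065.5 to 2899 UMIs per kept cell. The Cx3cr1 macrophages of a library summed to 57044 to 170437 UMIs. Of the barcodes, 125 occurred in more than 1 library, counted over the 6 pairs of libraries. Among these were 6 barcodes of Cx3cr1 macrophages, and 0 were Cx3cr1 macrophages in both libraries. Free RNA was present, since 57.3% of 1365 B cells (median 1683 UMIs) had a C1q UMI and 4.62% had 5 or more. Of these B cells, 7 (0.513%) had a Cx3cr1 UMI. Sedentary replicate 2 stood apart in immediate early genes, whose summed level in the Cx3cr1 macrophages was 18123 CPM (counts scaled to 1000000 per library and class) there and 7299 to 9589 CPM in the other libraries.

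The limits of the rule cut through a continuum. A single Cx3cr1 UMI was found in 46 of the 104 cells, 25 had 2 and 33 had at least 3, while 148 further cells met every other limit with 0 Cx3cr1 UMIs. The median depth was 2872 UMIs in the cells with 1 Cx3cr1 UMI and 2237 in those with 0. The summed C1q count ranged from 5 to 152 UMIs with a median of 59.5. It was 5 or 6 in 4 cells, and 11 cells outside the rule had 3 or 4. Of the 5 further Kupffer markers, 42 cells had none, 51 had 1 and 11 had 2, and 6 cells outside the rule had 3. Another 70 cells met all limits except that they held a Clec4f UMI.

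Most of the selected cells also lay together when the 15 genes of the rule were left out of the clustering. A cluster of 226 cells held 81 of the 104 cells (77.9%), and the median Cx3cr1 macrophage had 7 others among its 20 nearest neighbours. The median of the remaining kept cells was 0. By fold over all other cells this cluster was led by Cx3cr1, the nonclassical MHC gene H2-M2, Ms4a7, the collagenase gene Mmp13, Tmem119, Ccl3, Olfml3, the endotoxin co-receptor gene Cd14, Cd63 and Cxcl2. Of its 145 cells outside the rule, 92 had a Clec4f UMI, 74 had no Cx3cr1 UMI and 23 had a UMI of an excluded gene. The other 23 selected cells were scattered. A cluster led by the monocyte gene Chil3 and by Ly6i and Ccl9 held 8 of them (5 from exercise replicate 2, 1 and 2 from exercise and sedentary replicate 1). A cluster of Kupffer and hepatocyte transcripts with a median of 1422 UMIs held 7, one led by endothelial genes 4, and one of cycling cells 2. The remaining 2 lay in clusters led by Xcr1 and by Fscn1.

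The levels that follow are CPM of counts summed over the cells of a library, compared with 6035 Kupffer cells chosen by gate (C1q sum of at least 5, a Clec4f UMI and at least 3 of the 5 further markers). The rule separates these groups, so the differences are a description without a test. Over 5977 genes with at least 20 CPM in either class, 137 (2.29%) were at least 2-fold higher in the Cx3cr1 macrophages in all 4 libraries, on the scale of CPM + 10, and 226 (3.78%) were at least 2-fold lower. The genes named are the 15 with the highest and the 15 with the lowest ratio among those outside the rule with at least 100 CPM in either class, ranked by the library nearest to no difference.

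Ccr2, the chemokine receptor that brings monocytes out of the bone marrow (chromosome 9, 124101950 to 124113557, plus strand, GRCm38), headed the higher genes. Its level was 546 and 487 CPM in the exercise libraries (replicate 1, then 2) and 508 and 212 CPM in the sedentary ones, against 5.09 to 11.1 CPM in Kupffer cells. Cd63, a tetraspanin of late endosomes (chromosome 10, 128900989 to 128912822, plus strand), reached 762, 194, 614 and 274 CPM in the same order, against 4.06 to 14.3 CPM. Both genes were higher in every library, and Cd63 varied more between replicates than between the groups. A single cell held 50 of the 74 Cd63 UMIs in exercise replicate 1, and another 28 of the 35 in sedentary replicate 1. The tetraspanin gene Cd9 was at 515, 235, 438 and 399 CPM against 17.2 to 21.8 CPM. H2-M2 (chromosome 17, 37480851 to 37483552, minus strand) was at 443, 82.1, 70.1 and 87.2 CPM against 0.300 to 4.30 CPM, so that exercise replicate 1 alone was high.

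Genes of microglia and of haematopoietic regulation were among the other higher ones. Tmem119, a surface protein gene of microglia, was at 61.8, 111, 140.2 and 87.2 CPM against 1.16 to 2.33 CPM in Kupffer cells. Olfml3, which encodes a secreted matrix protein also known from microglia, was at 237, 147, 105 and 125 CPM against 5.26 to 9.31 CPM. The transcription factor gene Mef2c reached 134, 106, 140.2 and 212 CPM against 5.41 to 7.25 CPM, and the transcription factor gene Runx3 reached 61.8, 170.15, 228 and 174 CPM against 1.80 to 4.54 CPM. None of these ranges overlapped those of the Kupffer cells. Mef2c is also a B cell gene, and B cells had 695 CPM, while their Tmem119 and Olfml3 levels were 0 and 2.74 CPM. Lat2, Zmynd15, Ccdc109b, Cyp4f18, Ms4a7, Cd93 and Bcl2a1d made up the rest of the 15. All 15 were also higher in every library when only the cells of the main cluster were counted.

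The lower genes were largely those of the Kupffer program. Fcna, a lectin of the complement system, was at 35.1 to 76.3 CPM against 1894 to 2296 CPM in Kupffer cells. The iron exporter gene Slc40a1 was at 52.6 to 185 CPM against 2866 to 3127 CPM, and the haemoglobin scavenger receptor gene Cd163 at 0 to 23.5 CPM against 531 to 555 CPM. Apoc1, an apolipoprotein gene, was at 105 to 237 CPM against 5690.2 to 6407 CPM. In B cells, Apoc1 was at 345 CPM and Slc40a1 at 140.03 CPM. Kcna2 and Tmem26 had 0 UMIs in all 104 cells. C6, C4b, Ccl24, Fabp7, Paqr9, Cdh5, Cxcl13, Sdc3 and Pcolce2 were the others of the 15.

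**Figure D1:**
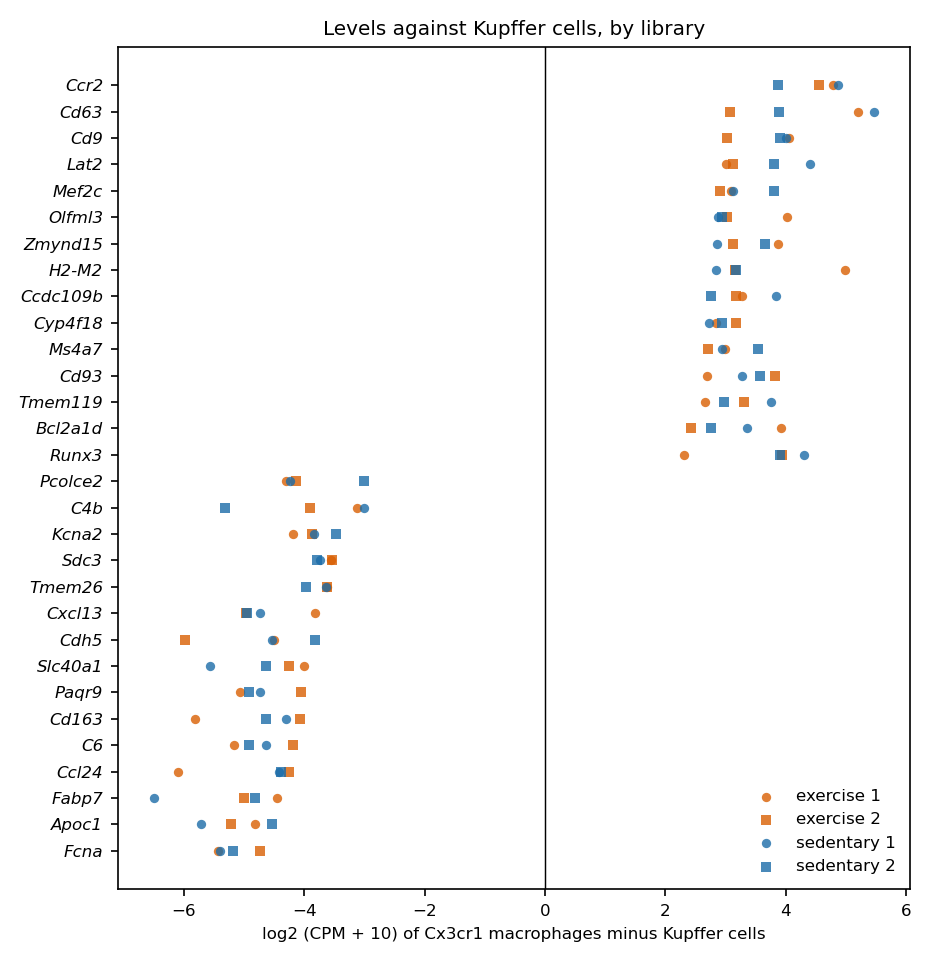
Differences of log2 (CPM + 10) between Cx3cr1 macrophages and Kupffer cells (x axis) for the 15 highest and 15 lowest genes outside the rule (y axis), 1 point per library. The 4 libraries lie on the same side of 0 for all 30 genes.

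Read by list, the identity genes of Kupffer cells that the rule did not use were low as a group. Of 19 such genes, 16 were at least 2-fold lower in all 4 libraries (median log2 ratio -2.74, against -0.13 over all genes measured). They included Clec1b, Mrc1, Vcam1 and Nr1h3, which encodes the liver X receptor alpha. Id3, a transcriptional regulator needed by Kupffer cells, did not follow them, with 1473, 1021, 1823 and 2030.3 CPM against 649 to 844 CPM. The core macrophage genes had a median log2 ratio of -0.26, with 1 of 18 (Lyz2) at least 2-fold higher and 1 (Lgmn) at least 2-fold lower. Csf1r, the receptor for macrophage colony-stimulating factor, was found in 96 of 104 cells at 1021 to 1283 CPM, and Adgre1, which encodes F4/80, in 81.

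Genes that present antigen on MHC class II were high. Of 14, 7 were at least 2-fold higher than in Kupffer cells in all libraries and 0 were lower (median log2 ratio 1.49). Cd74, the invariant chain, was at 43147, 36119, 44808 and 41577 CPM against 4349 to 9013 CPM, and every Cx3cr1 macrophage held it. Ciita, the master regulator of these genes, was at 58.7 to 140.2 CPM against 5.71 to 12.7 CPM. B cells had 20713 CPM of Cd74, and type 2 dendritic cells 33362 CPM.

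Of the genes known from microglia and from lipid-associated macrophages a part was higher. Of 13 measured genes of microglia and related Cx3cr1 lineages, 6 were at least 2-fold higher, among them P2ry6, Tmem119, Olfml3, Tgfbr1 and Trem2. P2ry12, the purinergic receptor of resting microglia, was lower, with 23.5 to 35.1 CPM against 78.9 to 94.8 CPM. The microglial regulator Sall1 and Fcrls had 0 UMIs in 104 cells, which allows a share of cells with a UMI of up to 3.48% (upper limit of the exact 95% interval). Of 16 measured genes of lipid-associated macrophages, 5 were at least 2-fold higher (Trem2, Cd9, Cd63, Mmp12 and Itgax) and Lpl and Ctsb were lower. Spp1 was found in 2 cells and Gpnmb in 8.

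Several chemokine genes were also higher. The receptors Ccr1, Ccr2, Cxcr4 and Ccrl2 were each at least 2-fold higher (4 of 5 measured). Among 17 measured ligands, Ccl3, Ccl4, Ccl9 and Cxcl16 were at least 2-fold higher and Ccl24 and Cxcl13 lower. Ccl3, a ligand of Ccr1, was at 432, 428, 666 and 1270.5 CPM against 78.9 to 163 CPM. All 12 measured mitochondrially encoded mRNAs were lower than in Kupffer cells (median log2 ratio -1.13), with median mitochondrial shares of 2.27% in the Cx3cr1 macrophages and 6.79% in Kupffer cells. The rule set a limit on this share in both classes.

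Compared with 26 patrolling monocytes (Ace and Cx3cr1 UMIs with a C1q sum under 5), the Cx3cr1 macrophages had more Rgs1, Ms4a7, Cd63, Cd72, Ly6a, Pf4, Zmynd15 and Cd81. The tetraspanin gene Cd81 was at 2089.5 CPM in the pooled Cx3cr1 macrophages and 108 CPM in the monocytes, while Rgs1, a brake on chemokine receptor signalling, was at 1047 CPM and 0 UMIs. The lower genes were Pglyrp1, Ifitm6, Plac8, Ceacam1, Ear2, Tppp3, N4bp2 and Spn. Plac8 was at 183 CPM against 3896 CPM. Compared with 65 type 2 dendritic cells (Cd209a and H2-Aa with a C1q sum under 5), Cd207, Cd63, Apoe, Trem2, Pf4, Ms4a7, Cd14 and Cd81 were higher. Apoe, the lipid carrier, was at 33250 CPM against 819 CPM. Apart from Cd209a, which chose the dendritic cells, the lower genes were Klrd1, Cd7, Clec10a, H2-Oa, Itgb7, Lsp1 and S100a4, of which Lsp1 was at 133 CPM against 1237 CPM. Some of the 15 genes highest against Kupffer cells were also present in the pooled patrolling monocytes and pooled type 2 dendritic cells. Ccr2 was at 155 and 354 CPM in that order, and Cd9 at 340 and 185 CPM. Runx3 was at 139 and 143 CPM, and Mef2c at 340 and 104 CPM. Lat2, Cyp4f18, Ccdc109b and Bcl2a1d reached 115 to 247 CPM in at least 1 class. Cd63, H2-M2, Tmem119, Olfml3, Zmynd15, Ms4a7 and Cd93 were at 0 to 30.9 CPM in both. Each comparison class held 4 to 26 cells a library.

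Markers of other cell types ranged from absent to above their level in Kupffer cells. The 6 markers of basophils and mast cells and the 4 of platelets had 0 UMIs, as had 5 of 8 neutrophil markers. A neutrophil marker was still found in 25 of the 104 cells (24.0%) and in 1671 of the 6035 Kupffer cells (27.7%), at unequal depth. Classical monocyte markers, summed over the 9 genes outside the rule, were at 721, 1197, 806 and 709.97 CPM against 388 to 614 CPM in Kupffer cells and 1289.8 to 1898 CPM in B cells. Of the 5 measured against Kupffer cells, Ccr2 and Ms4a4c were at least 2-fold higher in all 4 libraries (median log2 ratio 1.77), while Ly6c2 and F13a1 were found in 5 and 1 of the 104 cells and Vcan in 0. B cell markers were found in 36 of the 104 cells (34.6%) and in 1024 of the 6035 Kupffer cells, at unequal depth, and their sum was 49.8 to 140.2 CPM against 52.1 to 87.3 CPM. Hepatocyte markers, summed over 10 genes, were at 144, 64.5, 649 and 286 CPM in the 4 libraries, and all 10 had a UMI. Sinusoidal endothelial markers, summed over 8 genes with none at 0, were at 762, 381, 333 and 1731 CPM against 342 to 397 CPM in Kupffer cells, with Fcgr2b at least 2-fold higher in all 4 libraries. Hepatocyte markers were thus higher in both sedentary libraries, and the endothelial sum was highest in sedentary replicate 2.

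Among the 104 cells themselves Cd74, H2-Aa, Apoe, Lyz2 and the protease gene Ctss were found in every one. Several genes at higher levels than in Kupffer cells were found in a part of them. Cd63 and Trem2 were at least 2-fold higher than in Kupffer cells in all 4 libraries. Rgs1 was higher in all 4, but not 2-fold in each. Rgs1 was detected in 75 cells (72.1%, exact 95% interval 62.5 to 80.5%), Trem2, a lipid-sensing receptor, in 57 (54.8%), Ccr2 and Cd9 in 54 each, and Cd63 in 39 (37.5%, 28.2 to 47.5%). After every cell was thinned to 1500 UMIs, which left out 11 of the 104 cells and 1015 of the 6035 Kupffer cells, Cd63 was found in 22.6% against 1.10%. B cells at that depth had it in 0.787%. Trem2 was found in 34.4% against 10.6% and 1.24%, and Rgs1 in 63.4% against 40.6% and 4.95%. The shares in Kupffer cells and in B cells differed for Trem2 and Rgs1, and nearly coincided for Cd63. The intervals cover counting error only.

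**Figure D2:**
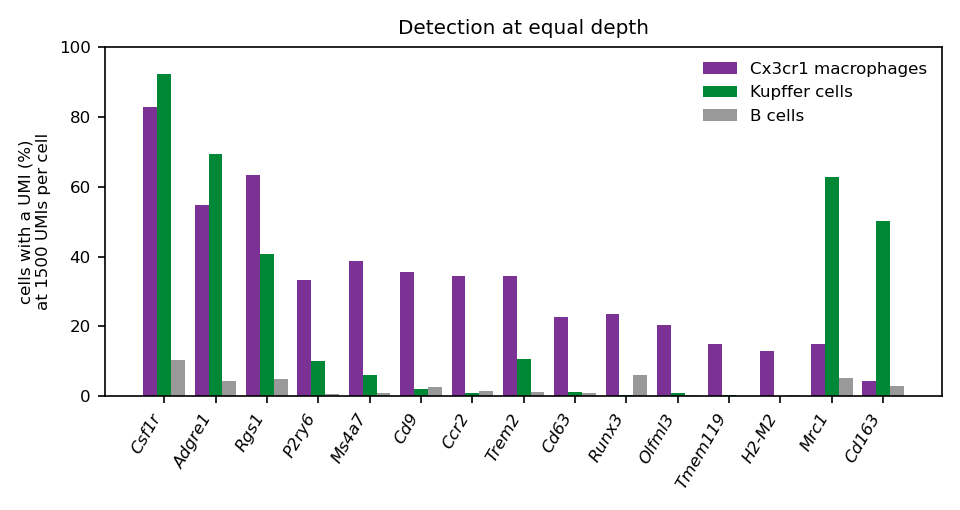
Percentage of cells with at least 1 UMI of each gene (y axis) after thinning to 1500 UMIs per cell, in Cx3cr1 macrophages, Kupffer cells and B cells. The B cell bars show the level given by free RNA for macrophage genes, such as 1.24% for Trem2 and 0.787% for Cd63.

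The Cd63-positive cells carried more of several other genes, without a test because the split uses the same cells. Of the 39 cells with Cd63, 17 had Tmem119 and 26 had Cd9, against 10 and 28 of the 65 without. Median depths were 3537 and 3110 UMIs. Pooled Tmem119 levels were 167 and 47.6 CPM, and Ccr2 levels were 386 and 497 CPM. In all 4 libraries Tmem119 and Cd9 were higher in the cells with Cd63.

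A single cell weighed heavily on exercise replicate 1. It held 18735 UMIs, which were 19.3% of the UMIs of that library's 23 Cx3cr1 macrophages, and it lay in the cluster led by Chil3. It carried 50 of the library's 74 Cd63 UMIs, 23 of 43 H2-M2 UMIs, 235 of 236 Lyz1 UMIs and all 31 C3 UMIs. Without it Cd63 in that library fell from 762 to 306 CPM and H2-M2 from 443 to 255 CPM, while Ccr2 was at 561 CPM and Trem2 at 383 CPM. The main edgeR fits on exercise and the shares of cells per library below were therefore also computed without this cell. It was chosen after its values were seen.

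The Cx3cr1 macrophages made up 0.788% (exact 95% interval 0.500 to 1.18%) and 0.877% (0.618 to 1.21%) of the kept cells in exercise replicates 1 and 2. In sedentary replicates 1 and 2 they made up 0.472% (0.284 to 0.736%) and 0.648% (0.420 to 0.956%). Both exercise libraries were above both sedentary ones, and the intervals overlapped. The means were 0.833% ± 0.0623 (SD, n = 2) and 0.560% ± 0.125 (SD, n = 2), and the exact two-sided permutation test gave p = 0.33, the smallest p that 2 against 2 libraries allow. As a share of Cx3cr1 macrophages plus Kupffer cells they were at 1.81%, 1.88%, 1.38% and 1.64% in the same order (exact two-sided permutation p = 0.33). The direction depended on the rule. With no Cx3cr1 UMI required, 252 cells qualified and the difference of the share of kept cells was -0.0723 percentage points, and with none of the 5 further Kupffer markers allowed it was -0.0226 percentage points (exercise minus sedentary). Median depth per kept cell was higher in the exercise libraries (2756 and 2899 UMIs) than in the sedentary ones (2065.5 and 2434.5 UMIs). The part of depth in these shares was not tested.

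Exercise was compared with the sedentary state in the counts summed over the Cx3cr1 macrophages of each library. In this edgeR quasi-likelihood test 7 of 1202 genes (0.582%) passed an adjusted p of 0.05, all 7 lower in the exercise libraries, and 107 had an unadjusted p under 0.05. DESeq2 called 5, all lower (Il1b, Rgs1, Dusp1, Btg2 and Junb). The 7 genes were the inflammatory cytokine gene Il1b, the signalling brake Rgs1, the stress-responsive genes Dusp1, Btg2 and Atf3, the lipid scavenger receptor gene Cd36 and the kinase gene Stk17b.

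Il1b (chromosome 2, 129364570 to 129371139, minus strand), which encodes interleukin-1 beta, was at 587 and 422 CPM in exercise replicates 1 and 2 and at 1718 and 2129.9 CPM in sedentary replicates 1 and 2. The groups did not overlap, and the edgeR log2 change was -1.99 (SE 0.256, adjusted p = 0.00674). It was detected in 41 of 60 exercise cells and in 38 of 44 sedentary cells. At 1500 UMIs per cell the shares were 42.9%, 41.2%, 87.5% and 81.8%. In B cells Il1b was at 23.0 to 65.1 CPM, far below its level in the Cx3cr1 macrophages of any library.

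Rgs1 (chromosome 1, 144242296 to 144249242, minus strand), one of the genes that mark these cells, was at 587 CPM in both exercise libraries and at 1595 and 2192 CPM in the sedentary ones (log2 change -1.74, SE 0.242, edgeR adjusted p = 0.00735). At 1500 UMIs per cell it was found in 42.9%, 52.9%, 93.8% and 86.4% of the cells. Both the level and the share were thus lower in each exercise library than in either sedentary one. The level in Kupffer cells was 258, 323, 367 and 614 CPM in the same order (log2 change -0.77, edgeR adjusted p = 0.591).

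Dusp1, the phosphatase that switches off stress kinases, was at 505 and 510.4 CPM against 1350 and 3176 CPM (log2 change -2.22, SE 0.348, edgeR adjusted p = 0.0156). Btg2, an antiproliferative early response gene, was at 237 and 288 CPM against 719 and 1345 CPM (log2 change -2.02, edgeR adjusted p = 0.0215). Both were highest in sedentary replicate 2. In Kupffer cells Dusp1 was at 620.5 and 693.7 CPM against 889.1 and 1751 CPM, also without overlap. The log2 change there was -1.02 (edgeR adjusted p = 0.422). B cells had 56.64 and 80.09 CPM of Dusp1 against 118.4 and 204.1 CPM. Btg2 in Kupffer cells was at 153.7 and 136.2 CPM against 147.6 and 228.5 CPM, with overlapping groups. B cells had 308 and 328.4 CPM of Btg2 against 259.6 and 300.3 CPM. Atf3, a stress-induced transcription factor, had 10.3 and 17.6 CPM against 193 and 187 CPM (log2 change -3.61, edgeR adjusted p = 0.0258). It rests on 30 UMIs in 20 cells, of which 16 were sedentary. In Kupffer cells Atf3 was at 16.97 and 16.67 CPM against 28.12 and 44.13 CPM (log2 change -1.13, edgeR adjusted p = 0.135). B cells had 1.77 and 4.805 CPM of Atf3 against 3.79 and 4.438 CPM, with overlapping groups.

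Cd36 was at 72.1 and 29.3 CPM against 316 and 262 CPM (log2 change -2.65, SE 0.475, edgeR adjusted p = 0.0258), with 51 UMIs in 21 cells and 14 of them in 1 cell. Under the alternatives that tested Cd36 its log2 change ranged from -3.45 to -0.667. Stk17b was at 113 and 123 CPM against 351 and 473 CPM (log2 change -1.84, edgeR adjusted p = 0.0432). Stk17b is also present in B cells, at 288.5 to 521 CPM, and in Kupffer cells at 322 to 543 CPM. Its sedentary levels in the Cx3cr1 macrophages lay within those ranges and its exercise levels below them.

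**Figure D3:**
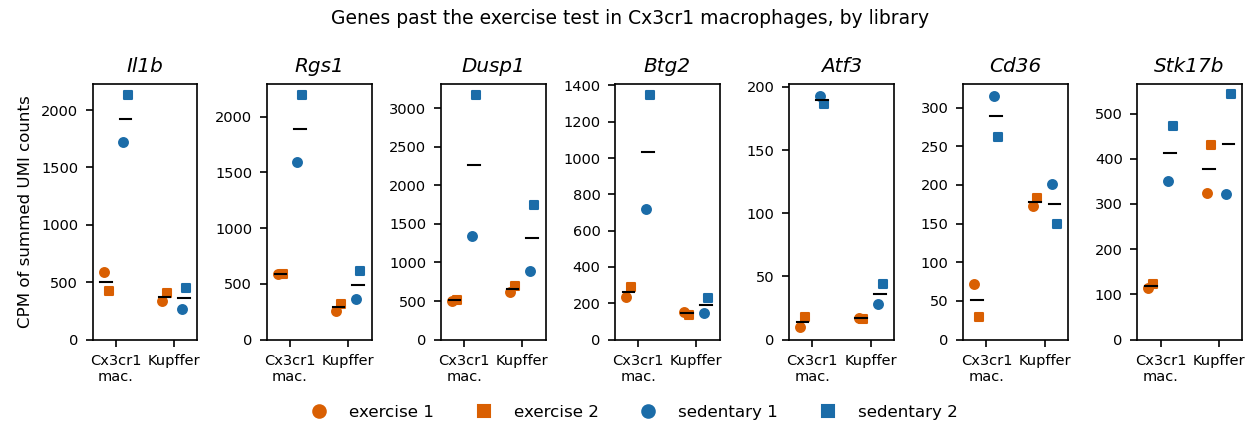
Levels (CPM of summed UMI counts, y axis from 0, a scale per gene) of the 7 genes past the test in Cx3cr1 macrophages and in Kupffer cells, 1 point per library, with the mean of each group as a line. In the Cx3cr1 macrophages the exercise libraries lie below both sedentary ones for all 7 genes.

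The calls depended on sedentary replicate 2 and on the Cx3cr1 limit. Without that library 0 of 1774 genes passed, 119 had an unadjusted p under 0.05 in edgeR, and the 7 genes had log2 changes of -1.35 to -3.56 (smallest adjusted p 0.0878, Il1b). Without a Cx3cr1 UMI required 1 of 2579 genes passed, Ccl24. Without the cell of 18735 UMIs 8 genes passed, all lower, and all 7 of the genes above were among them, the eighth being Cd14. In the main cluster alone Il1b, Rgs1, Dusp1 and Btg2 passed, Atf3 and Stk17b did not, and Cd36 fell below the filter on low counts.

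No gene passed the test as higher, but this depended on the setting. Higher genes made up 13 of 27 calls with no filter on low counts, 6 of 25 with a replicate block, 3 of 19 without exercise replicate 1, 13 of 27 without exercise replicate 2, 20 of 60 without sedentary replicate 1 and 1 of 10 with a C1q sum of at least 10. The smallest p among higher genes belonged to Tmsb10, an actin-binding thymosin gene, at 1709 and 1303 CPM against 736 and 673 CPM (log2 change 1.06, edgeR adjusted p = 0.0918). A single cell held 83 of its 484 UMIs, and the log2 change was 0.02 in the main cluster (edgeR adjusted p = 0.993) and 0.72 without the cell of 18735 UMIs. B cells had 4126 to 4887 CPM of it. Cfp, the complement activator properdin, was at 268 and 147 CPM against 35.1 and 24.9 CPM (adjusted p = 0.110 in edgeR), with 40.0% of its UMIs in the single deep cell. Rsrp1 was at 669 and 657 CPM against 280.5 and 336 CPM (log2 change 1.05, edgeR adjusted p = 0.191). In Kupffer cells Rsrp1 had a log2 change of 1.16 (edgeR adjusted p = 0.0255), and in B cells it was at 483 and 421 CPM against 246 and 226 CPM. Vim, AW112010, Fis1, Psap and 0610012G03Rik also had higher means and adjusted p values of 0.171 to 0.349 in edgeR.

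Immediate early and heat shock genes, induced within minutes of stimulation, were the list with the most called members. Of 16 tested, 15 had negative changes, 3 passed (Dusp1, Btg2 and Atf3), and both exercise libraries were below both sedentary ones for 11. Over all 1202 genes tested 607 had negative changes, 17.5% had the exercise libraries below and 21.3% had them above. The list's median log2 change was -0.96, against -0.01 over all genes tested, and the same 16 genes had a median of -0.46 in Kupffer cells. Without sedentary replicate 2 the median was -0.32, with 13 of 16 negative and 0 called. Junb, an AP-1 subunit, was at 659 and 358 CPM against 1034 and 2068 CPM (edgeR adjusted p = 0.0869).

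Inflammatory cytokines and NF-kB targets had negative changes for 8 of 9 tested genes (607 of 1202 over all genes), with 1 called (Il1b) and a median of -1.24. The same genes had a median of -0.71 in Kupffer cells. Without sedentary replicate 2 the median was -0.57 over 11 genes. The chemokine gene Cxcl2 was at 61.8 and 70.4 CPM against 123 and 1196 CPM (edgeR adjusted p = 0.0874), so that 1 library was high. Ccl3 was at 432 and 428 CPM against 666 and 1270.5 CPM (adjusted p = 0.171 in edgeR). Nfkbia, the inhibitor of NF-kB, was at 402 and 346 CPM against 666 and 709.97 CPM (adjusted p = 0.243 in edgeR). The summed hepatocyte markers were also lower in both exercise libraries (144 and 64.5 CPM against 649 and 286 CPM, none of the 10 at 0 over all cells). In Kupffer cells all 10 passed the edgeR test as lower, where 31 of 10264 genes passed as lower and 1 as higher. The part of the hepatocyte markers in the result was not tested.

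Of the 3 glucocorticoid-induced genes tested all 3 had negative changes, against 607 of 1202 over all genes. Dusp1, also on the immediate early list, was the 1 called, against 7 of 1202 over all genes. The median log2 change of the 3 genes was -1.56, and -0.83 in Kupffer cells. Tsc22d3, which encodes the leucine zipper GILZ, was at 41.2 and 158 CPM against 245 and 374 CPM (edgeR adjusted p = 0.313). In B cells Tsc22d3 was at 340 and 488.5 CPM against 739 and 960 CPM. Sgk1, the third gene, was there at 26.6 and 19.2 CPM against 39.8 and 39.9 CPM.

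**Figure D4:**
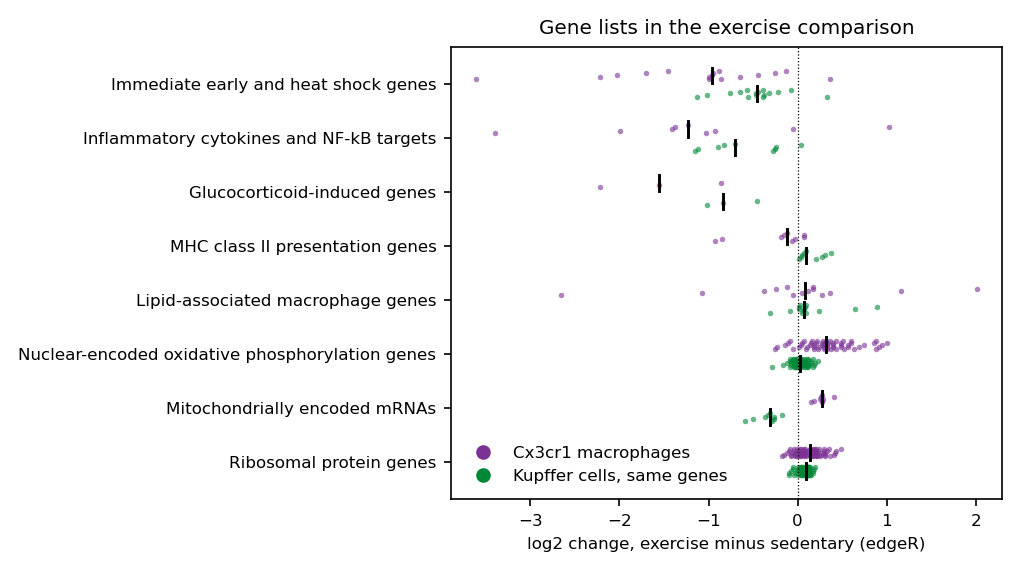
Log2 changes between exercise and sedentary libraries (x axis) for the tested genes of 8 lists (y axis) in Cx3cr1 macrophages and, for the same genes, in Kupffer cells, 1 point per gene with the median as a line. The medians of the immediate early list are -0.96 and -0.46, and those of the mitochondrially encoded mRNAs 0.27 and -0.31.

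Genes of the respiratory chain moved little, and none passed. Of 59 nuclear-encoded genes tested 53 had positive changes, with a median of 0.32 (0.02 for the same genes in Kupffer cells). Both exercise libraries were above both sedentary ones for 32. Over all 1202 genes tested 595 had positive changes, and both exercise libraries were above both sedentary ones for 256 (21.3%). Without the deep cell the median of the nuclear-encoded genes was 0.18 over 54 genes. Cox7a2l, a supercomplex assembly factor, was at 659 and 475 CPM against 193 and 336 CPM (log2 change 1.00, edgeR adjusted p = 0.377). Of the mitochondrially encoded mRNAs 9 of 9 had positive changes (median 0.27), and 5 of 9 without the deep cell (median 0.03). Ribosomal protein genes had 63 of 80 positive changes with a median of 0.14. Both exercise libraries were above both sedentary ones for 36 of them, and 0 passed.

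Of the other markers of these cells, Cd63 and Trem2 lay outside the rule and showed no call. C1qa was at 5056 and 4852 CPM against 5452 and 6178 CPM, and Cx3cr1 at 515 and 499 CPM against 666 and 585 CPM. Both were used by the rule, which sets a least count per cell, so no test is given for them. Trem2 was at 319 and 329 CPM against 438 and 149 CPM (adjusted p = 0.951 in edgeR), with the low value in sedentary replicate 2, where it was found in 7 of 25 cells. Of 9 tested MHC class II genes 2 had positive and 7 negative changes (median -0.12), and none passed. Cd74 was at 43147 and 36119 CPM against 44808 and 41577 CPM (adjusted p = 0.849 in edgeR). Of 14 tested lipid-associated genes 8 were positive and 6 negative, against 595 and 607 of all 1202 genes tested. Cd36 was the 1 called, against 7 of 1202 (0.582%) over all genes. Apoe was at 31892 and 29430 CPM against 38795 and 39061 CPM (adjusted p = 0.230 in edgeR).

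Whether the change with exercise differed from that in Kupffer cells was tested as an interaction in edgeR, with the library as a block. Of 9642 genes 16 passed (0.166%), 8 in each direction, and 348 had an unadjusted p under 0.05. Relative to Kupffer cells the changes were more negative for Il1b (difference of log2 changes -1.90, adjusted p = 7.95e-11), Cd36, Cd14, Btg2, Fosl2, Cxcl2, Stk17b and Dusp1. They were more positive for the lysozyme gene Lyz1, the complement gene C3, the chemokine gene Ccl6, Cfp, the intermediate filament gene Vim, AW112010, mt-Nd2 and mt-Co3. In Kupffer cells Il1b was at 337, 406, 265 and 452 CPM, with overlapping groups, and Cd36 at 172, 184, 201 and 149.8 CPM.

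None of the more positive group passed without 1 cell. The cell of 18735 UMIs held 235 of the 249 Lyz1 UMIs of all 104 cells (94.4%) and 79.5% of the C3, 46.1% of the Ccl6 and 40.0% of the Cfp UMIs. Without it 4 genes passed, all more negative than in Kupffer cells. These were Il1b (difference -1.78, edgeR adjusted p = 2.22e-07), Cd36 (-2.57, edgeR adjusted p = 0.00205), Cd14 (-1.70, edgeR adjusted p = 0.00205) and Fosl2 (-3.95, edgeR adjusted p = 0.0315). Fosl2 had 22 UMIs in 14 cells, of which 11 came from sedentary replicate 2. In the main cluster alone Il1b, Cd14 and Fosl2 passed and Cd36 did not (edgeR adjusted p = 0.222).

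In this fit the prior degrees of freedom were estimated as infinite, so every gene was given the spread of the fitted trend. With terms for group and class in place of the library block 0 genes passed, 484 had an unadjusted p under 0.05, and the smallest adjusted p in edgeR was 0.133.

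**Figure D5:**
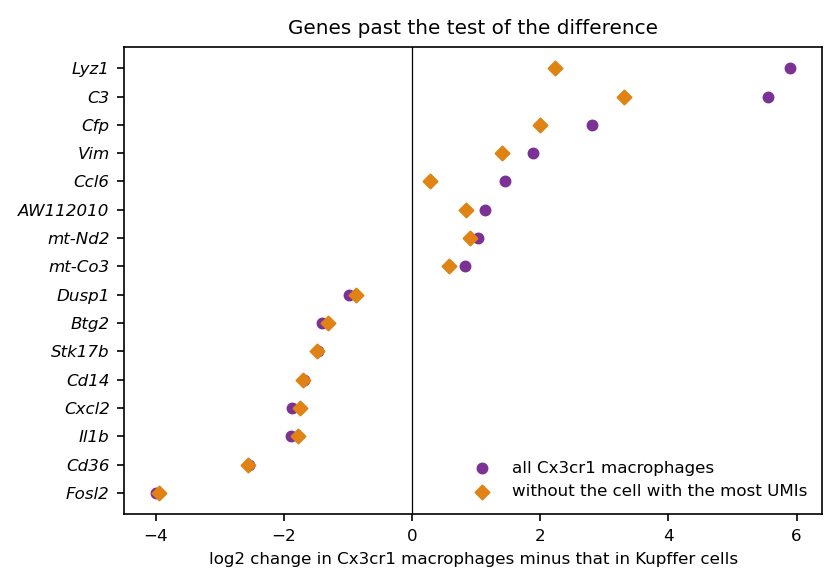
Difference between the log2 change in Cx3cr1 macrophages and that in Kupffer cells (x axis, exercise minus sedentary) for the 16 genes past the test (y axis), over all Cx3cr1 macrophages and without the cell with the most UMIs. Lyz1 goes from 5.90 to 2.22 and Il1b from -1.90 to -1.78.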

How the data were processed

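Single-cell RNA was measured in 4 libraries of liver CD45+ cells. The authors deposited a count of UMIs for each gene in each barcode, made with Cell Ranger and Seurat 3.1 against mm10 (GRCm38), per the submitters' processing notes. The Cell Ranger version, the strand setting and whether introns were counted are not given in the sources used here. The members and gene lists were chosen with earlier results of these data known.

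From the counts, cells were kept with at least 500 UMIs, 200 genes and at most 20% mitochondrial UMIs (15020 of 15383 barcodes), and 104 met the rule. Counts were summed per library and tested with edgeR 4.0.16 (R 4.3.3, TMM, filterByExpr, quasi-likelihood F-test, Benjamini-Hochberg adjusted p under 0.05). The difference from Kupffer cells was an interaction with the library as a block. DESeq2 1.42.0 was an alternative. Named genes were those past the test, filled to 8 per direction by smallest p, and 1 gene of the lists is not reported here. Levels used CPM with 10 added. Shares were compared by exact permutation, with exact 95% binomial intervals, which cover counting error only.

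Doublets were scored by 20 nearest neighbours among simulated pairs (460 cells marked, 2 of them Cx3cr1 macrophages) and kept, with their removal as an alternative. Clustering (Leiden, 30 components of 2000 variable genes, Python 3.11.15, leidenalg 0.10.2) left out the 15 rule genes. Coordinates are those of GENCODE release 21 of the mouse annotation, matched by gene ID for 604 of 604 genes. Counts were also simulated for the exercise comparison, with 200 genes changed and 1 dispersion of 0.05 for all genes. Of the changed genes that passed the filter, 28 of 115 (24.3%) were recovered at 2-fold, 89 of 140 (63.6%) at 4-fold and 141 of 142 (99.3%) at 8-fold. The other changed genes were not tested. In all 1247, 1331 and 1336 genes were tested, with 0, 0 and 7 false calls.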

Additional observations from a re-analysis of the deposited data

Results flagged for a closer look

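The change with exercise differed between Cx3cr1 macrophages and Kupffer cells for 16 genes by the edgeR interaction test with a library block. The differences of log2 changes that were more negative in the Cx3cr1 macrophages were -1.90 for Il1b, -2.55 for Cd36, -1.68 for Cd14, -1.41 for Btg2, -4.00 for Fosl2, -1.88 for Cxcl2, -1.47 for Stk17b and -0.98 for Dusp1. Cd14 was at 237 and 229 CPM in the exercise and 456 and 1221 CPM in the sedentary libraries.

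The differences that were more positive were 5.90 for Lyz1, 5.56 for C3, 1.45 for Ccl6, 2.81 for Cfp, 1.88 for Vim, 1.13 for AW112010, 1.03 for mt-Nd2 and 0.83 for mt-Co3. None of these 8 passed without the cell of 18735 UMIs, when the adjusted p values in edgeR were 0.729 to 1. Their differences then ranged from 0.283 for Ccl6 to 3.31 for C3, with 0.835 for AW112010 and 0.90 for mt-Nd2. Of the more negative genes Btg2, Cxcl2, Stk17b and Dusp1 did not pass without that cell either, with differences of -1.31, -1.755, -1.485 and -0.869.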

How the results depend on the processing

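Of the 7 genes past the exercise test, 73 of 101 values under the alternatives remained past it, 28 did not, and 0 changed sign. The number of genes past the test was 27 with no filter on low counts, 25 with a replicate block, 1 with no Cx3cr1 UMI needed, 4 with none of the 5 other Kupffer markers and 4 with the main cluster alone. Leaving out 1 library gave 0 (without sedentary replicate 2) to 60 (without sedentary replicate 1). These calls included 13 higher genes with no filter, 6 with the replicate block and 0 to 20 with 1 library left out, against 0 of the 7. The differences of replicate 1 from replicate 2 were nearly uncorrelated between the exercise and sedentary groups (r = 0.0297 over 1202 genes). With sums over 19 to 37 cells a library, this r cannot show whether replicate numbers pair the libraries. Serum alanine aminotransferase was 26 and 33 U/L for replicate 1 of the 2 groups and 59 and 56 U/L for replicate 2. For the difference from Kupffer cells the number was 0 with no library block, 23 with a replicate block, 4 with the main cluster alone and 4 without the deepest cell. Leaving out 1 library gave 3 (without exercise replicate 1) to 26 (without sedentary replicate 1). The main-cluster, deepest-cell and share-block alternatives were chosen after seeing the data. The cause of these shifts was not tested.

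The difference of shares, exercise minus sedentary, was -0.0723 and -0.0226 percentage points of kept cells, and -0.933 and -0.211 of macrophages, with no Cx3cr1 UMI needed and with none of the 5 markers. Leaving out 1 library gave 0.184 to 0.361 and 0.207 to 0.460. The replicate block gave 0.272 and 0.334. The number of genes at least 2-fold above Kupffer cells was 210 with 1 CPM added and 19 as mean log values of thinned cells, against 137.

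Changes of sign were found among genes that did not pass the exercise test. With no Cx3cr1 UMI needed the log2 changes were -0.124 for mt-Nd2, 0.404 for Cx3cr1, 0.0695 for Ctsl, -0.0451 for mt-Nd1 and -0.0511 for Rpl41. With none of the 5 markers they were 0.391 for C1qa, 0.596 for Cx3cr1, 0.195 for Apoe, 0.213 for Cd74, 0.112 for H2-Ab1, -0.0987 for mt-Nd1 and -0.193 for Rpl13a. In the main cluster they were 0.00053 for C1qa, 0.0299 for Cx3cr1 and 0.0896 for Cd74, and without the deepest cell -0.0102 for mt-Cytb and -0.0537 for mt-Nd1. Cd74 was at 0.00588 with no filter. Leaving out 1 library at a time gave log2 changes of -0.291 to 0.0179 (without exercise replicate 2) for Cd74 and -0.41 to 0.0574 (without exercise replicate 2) for H2-Ab1. It gave -0.0101 to 0.677 for mt-Nd2, -0.377 to 1.09 for Trem2 and -2.55 to 0.0613 for the Cxcl2 difference from Kupffer cells, whose lowest, lowest and highest values came without sedentary replicate 2. The cause was not tested.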

Other observations

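Cd207, which encodes the lectin langerin, was detected in 30 of the 104 Cx3cr1 macrophages (28.8%). Its level was 762 and 628 CPM in the exercise libraries (replicate 1, then 2) and 526 and 685 CPM in the sedentary ones, and 231 to 326 CPM in Kupffer cells. At 1500 UMIs per cell it was found in 28.0% of Cx3cr1 macrophages, 24.0% of Kupffer cells and 2.36% of B cells. The share of cells was thus similar in both macrophage classes while the level was higher in the Cx3cr1 macrophages of every library. The proliferation gene Mki67 was found in 3 of the 104 cells.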
